A study of Mus musculus with 14 samples.

Results

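A set of 10 transcripts of the unfolded protein response of the ER and of the integrated stress response were followed in mouse kidney tissue: Hspa5, Ddit3, Atf4, Atf3, Xbp1, Atf6, Herpud1, Trib3, Asns and Chac1. They were taken by symbol from the expression tables of 14 mice, and all 10 were found among the 21878 genes and passed the filter that left 14912 genes for testing. The study asked what loss of complement factor B (Cfb), an enzyme of the alternative complement pathway, does in diabetic kidney disease. One stranded mRNA library was made from the kidney of each mouse. The expression unit is FPKM, which scales fragment counts to library size and to transcript length.

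All mice were male and of the C57BL/6J strain. WT diabetic mice (n = 4) and Cfb-/- diabetic mice (n = 4) were fed a high-fat diet, with 60% of calories from fat, for 4 weeks, and then injected on 5 days with streptozotocin, a toxin of pancreatic beta cells, at 60 mg/kg. WT control mice (n = 3) and Cfb-/- control mice (n = 3) were fed chow, with 10% of calories from fat, and were injected with citrate buffer. Mice entered at 8 weeks of age and were killed 21 weeks after streptozotocin, and the label for time reads 34 weeks, with no starting point. The labels name the Cfb-/- genotype both a knockout and a knockdown. Both diet and toxin separate diabetic from control mice in each genotype, so the effects of the high-fat diet and of streptozotocin cannot be told apart.

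Misfolded protein in the ER activates the membrane sensors PERK (Eif2ak3), IRE1alpha (Ern1) and ATF6. PERK and the kinases GCN2 (Eif2ak4), PKR (Eif2ak2) and HRI (Eif2ak1) phosphorylate the initiation factor eIF2alpha, which slows protein synthesis in general while the mRNA of ATF4 is translated more. ATF4 then induces genes of amino acid supply and stress, whereas ATF6 and the spliced form of XBP1 induce chaperones and ER-associated degradation. Protein levels, phosphorylation, cleavage of ATF6 and splicing of Xbp1 are not seen in gene-level mRNA values.

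The promoters of the members differ in the elements that these factors bind. The ER stress response element (ERSE, the letters CCAAT and CCACG with 9 free bases between them) and ERSE-II (ATTGG and CCACG with 1 free base between them) are bound in ATF6- and XBP1-driven induction, and the C/EBP-ATF response element (CARE, here TGATGNAA) is bound by ATF4 with C/EBP partners. These letters were searched on both strands of the 250 bases before the RefSeq start of each gene in GRCm38.p6, together with the letters TGACGTCA (CRE) and TGACGTGG (UPRE). A window was at hand for 9 of the 10 members, all but Atf6. Hspa5 held an ERSE, Herpud1 held an ERSE-II and a CARE, and Asns, Atf3 and Chac1 held a CARE. Neither the CRE nor the UPRE letters were found in a member's window, and the windows of Ddit3, Atf4, Xbp1 and Trib3 held none of the 5 motifs. Among 32851 windows of all genes, 0.113% held the ERSE, 0.0304% the ERSE-II and 3.45% the CARE, with 1.55% for CRE and 0.563% for UPRE. A match describes letters only, and the absence of a match says nothing of sites outside the window. Trib3, without a match, rose in diabetic mice of both genotypes, and Chac1, with a CARE, was called in neither. The windows of Asns and Atf3, which rose in diabetic mice of both genotypes, and those of Hspa5 and Herpud1, which were not called, are printed 5′ to 3′ along the gene, with the matches in capitals (a CARE on the opposite strand reads TTNCATCA). Hspa5 lies before the start at chr2:34771840-34772089 (plus strand), Herpud1 at chr8:94386179-94386428 (plus strand), Asns at chr6:7693210-7693459 (minus strand) and Atf3 at chr1:191183334-191183583 (minus strand).
Hspa5: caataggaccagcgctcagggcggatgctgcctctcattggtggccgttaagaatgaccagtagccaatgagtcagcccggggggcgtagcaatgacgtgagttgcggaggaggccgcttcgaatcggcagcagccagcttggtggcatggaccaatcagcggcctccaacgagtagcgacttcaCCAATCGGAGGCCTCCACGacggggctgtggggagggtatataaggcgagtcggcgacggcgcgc
Herpud1: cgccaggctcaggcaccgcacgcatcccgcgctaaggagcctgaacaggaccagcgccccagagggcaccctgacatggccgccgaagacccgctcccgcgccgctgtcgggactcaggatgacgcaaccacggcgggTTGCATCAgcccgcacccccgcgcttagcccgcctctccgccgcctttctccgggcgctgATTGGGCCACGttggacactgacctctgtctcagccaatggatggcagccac
Asns: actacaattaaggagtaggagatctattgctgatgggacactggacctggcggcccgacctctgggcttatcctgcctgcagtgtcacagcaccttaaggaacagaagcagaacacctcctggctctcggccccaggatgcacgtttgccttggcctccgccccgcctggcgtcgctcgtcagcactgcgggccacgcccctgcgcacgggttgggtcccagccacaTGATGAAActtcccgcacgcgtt
Atf3: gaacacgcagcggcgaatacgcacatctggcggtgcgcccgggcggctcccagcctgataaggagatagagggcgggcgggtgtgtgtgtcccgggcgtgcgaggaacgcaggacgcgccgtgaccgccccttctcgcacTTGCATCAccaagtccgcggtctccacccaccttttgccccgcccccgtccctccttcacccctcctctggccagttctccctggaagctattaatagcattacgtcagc
Capitals mark the ERSE in Hspa5, from -65 to -47 bases before the start, and in Herpud1 the CARE, from -112 to -105, followed by the ERSE-II, from -52 to -42. In Asns they mark the CARE from -23 to -16, and in Atf3 that from -110 to -103. The GENCODE annotation places the 5′ end of Hspa5, Asns and Atf3 upstream of the RefSeq start, so the windows depend on the annotation.

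Across the 14 libraries, summed FPKM was 330246 to 488196, and relative depth, read from the steps between the lowest values, differed by at most 1.19-fold. Absolute depth is unknown. The deletion was seen in the RNA, with Cfb at 1.13 to 1.43 FPKM in Cfb-/- diabetic and 2.05 to 2.22 FPKM in Cfb-/- control mice, against 56.7 to 81.9 FPKM in WT diabetic and 62.2 to 131 FPKM in WT control mice. Kap, an androgen-regulated transcript of the proximal tubule, took 10.2% to 13.9% of summed FPKM in control mice and 1.98% to 4.60% in diabetic mice. The median log2 difference of all tested genes between diabetic and control mice was 0.29 in WT and 0.22 in Cfb-/- mice. With values scaled to the sum of FPKM, it was 0.60 and 0.41, and with Kap left out of that sum 0.48 and 0.29. The part of Kap in this shift was not tested. The median fell to 0.03 and -0.01 after median-ratio scaling. In WT mice, the changes of Atf3, Atf6 and the members not called are also given relative to the median of 0.29. All other differences with diabetes are printed without this subtraction.

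Levels of the members spanned more than 2 orders of magnitude. Over the 14 mice, Hspa5 was the highest at a mean of 248 FPKM, above the levels of 98.5% of tested genes, followed by Herpud1 at 111 FPKM, Atf4 at 77.1 FPKM and Xbp1 at 75.1 FPKM. Atf6 (6.99 FPKM), Ddit3 (3.86 FPKM), Asns (3.07 FPKM), Atf3 (2.98 FPKM), Trib3 (1.16 FPKM) and Chac1 (0.643 FPKM) were far lower, and the neighbours Atf4 and Xbp1 as well as Ddit3, Asns and Atf3 lay closer together than the spread between mice. Hspa5 and Herpud1 held the first and second place in all 4 groups, and only the lower ranks changed. Xbp1 stood above Atf4 in WT control mice only. Atf3 was at place 8 in both control groups and in WT diabetic mice, and at place 6 in Cfb-/- diabetic mice.

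**Figure D1:**
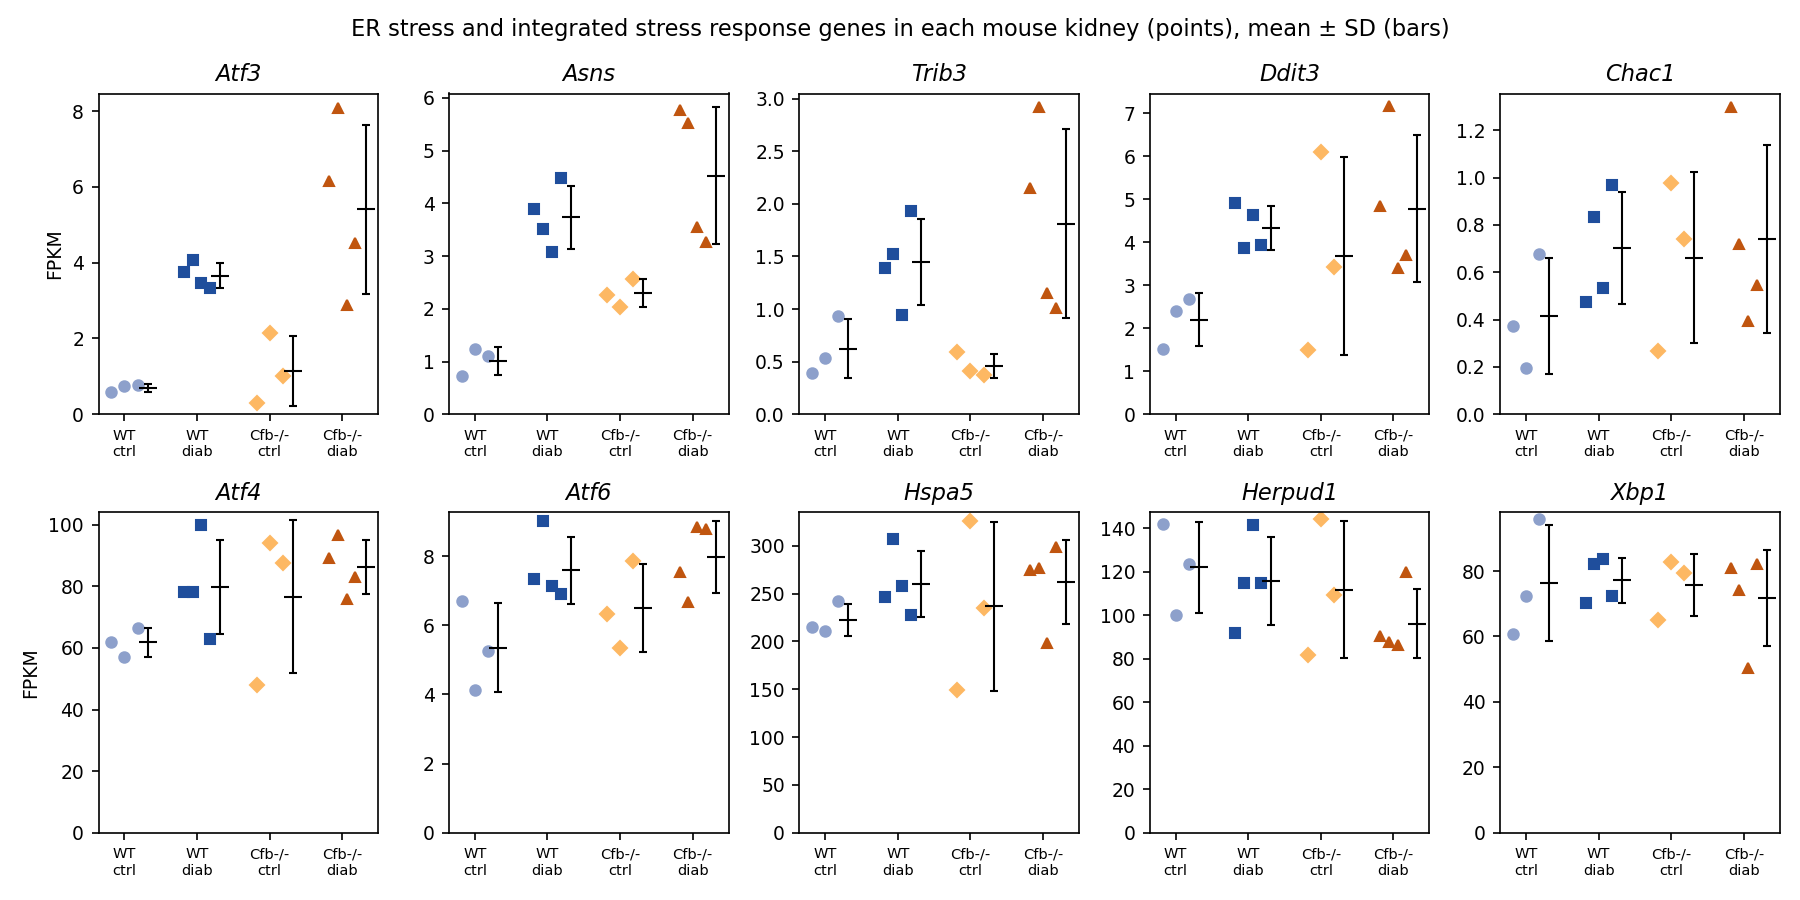
Expression of the 10 members in FPKM (vertical axes, linear from 0) in each mouse (points) of the 4 groups, with mean ± SD at the right of each group. Atf3, Asns and Trib3 separate diabetic from control mice in both genotypes, while Hspa5, Herpud1 and Xbp1 overlap throughout.

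Diabetes was compared with control in WT mice first. Of the 10 members, 5 rose, Atf3, Asns, Trib3, Ddit3 and Atf6, and none fell, at a limma adjusted p under 0.05 over all tested genes. Of all tested genes, 46.1% were called in this comparison and 36.2% were called higher, and the members' count is read against those shares. The median log2 difference of the members was 0.61, beside 0.29 for all tested genes. The same 5 members were those whose groups did not overlap, a separation that 35.5% of all tested genes showed in the higher direction. Members are not replicates, and each is described on its own.

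Atf3 encodes a transcription factor of the ATF/CREB family that ATF4 induces and that also responds early to many other stimuli (chr1:191170296-191183333, minus strand). It was at 0.581, 0.744 and 0.775 FPKM in WT control mice and at 3.75, 4.07, 3.46 and 3.34 FPKM in WT diabetic mice. Each diabetic value lay above every control value by a wide margin. The log2 difference was 2.24 (SE 0.44, adjusted p = 0.0011 by limma), or 1.95 above the median of all genes, the largest rise among the members, and the exact two-sided permutation test over the mice gave its smallest possible p of 0.0286.

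Asns encodes asparagine synthetase, a classical ATF4 target of amino acid limitation (chr6:7675165-7693209, minus strand). Its values were 0.723, 1.23 and 1.10 FPKM in WT control and 3.90, 3.50, 3.07 and 4.47 FPKM in WT diabetic mice. No value was shared between the ranges, and the log2 difference was 1.80 (SE 0.22, limma adjusted p = 4.1e-05), a fold of 3.47 with a 95% interval of 2.49 to 4.84.

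Trib3, a pseudokinase induced by ATF4 and CHOP that restrains their activity (chr2:152337425-152344060, minus strand), was at 0.395, 0.538 and 0.936 FPKM in WT control and at 1.39, 1.52, 0.946 and 1.94 FPKM in WT diabetic mice. The lowest diabetic and the highest control mouse were almost level. The log2 difference was 1.13 (SE 0.35, limma adjusted p = 0.0178). The exact two-sided permutation test gave p = 0.0571 for Trib3, beside 0.0286 for Asns, Ddit3 and Atf6.

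Ddit3, which encodes CHOP, the transcription factor linked to apoptosis after prolonged ER stress (chr10:127290793-127296291, plus strand), was at 1.51, 2.41 and 2.67 FPKM in WT control and at 4.91, 3.86, 4.63 and 3.94 FPKM in WT diabetic mice. The groups were apart, with a log2 difference of 0.98 (SE 0.36, limma adjusted p = 0.0397). Atf6, the sensor that is cleaved in the Golgi to a transcription factor (chr1:170704457-170868585, minus strand), was at 6.69, 4.12 and 5.25 FPKM in WT control and at 7.33, 9.03, 7.12 and 6.91 FPKM in WT diabetic mice. Its log2 difference was 0.52 (SE 0.17, limma adjusted p = 0.0259), only 0.23 above the median of all genes.

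The calls of Ddit3 and Atf6 were lost after median-ratio scaling (adjusted p of 0.138 and 0.233) and both, with Trib3, after quantile normalization, whereas Asns and Atf3 were called under all 26 alternatives. Leaving out WT control 2 alone ended the calls of Trib3, Ddit3 and Atf6 (adjusted p of 0.0626, 0.0743 and 0.147). The call of Ddit3 was lost in 6 of the 7 omissions of 1 WT mouse, all but that of WT control 3 (adjusted p of 0.0534 to 0.139), and with no filter on low genes (0.0567). That of Atf6 was also lost without WT diabetic 2 (0.0714) or WT control 3 (0.0594), and that of Trib3 without WT control 1 (0.0703).

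The other 5 members were not called in WT mice. Hspa5 encodes BiP, the main ER chaperone of the HSP70 family and the usual gauge of the unfolded protein response (chr2:34772090-34776529, plus strand). It was at 215, 211 and 242 FPKM in WT control and at 247, 308, 258 and 228 FPKM in WT diabetic mice, so the groups overlapped. Its log2 difference was 0.22, with a 95% interval of -0.24 to 0.67, and relative to the median of all genes it stood at -0.07. Herpud1, a component of ER-associated degradation (chr8:94386429-94395371, plus strand), was at 142, 100.2 and 124 FPKM in WT control and 91.7, 115, 141 and 115 FPKM in WT diabetic mice. Its log2 difference was -0.08, with an interval of -0.49 to 0.33.

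Xbp1 (chr11:5520641-5525993, plus strand), whose mRNA IRE1alpha splices, was at 60.8, 72.5 and 95.8 FPKM in WT control and 70.3, 82.3, 83.6 and 72.3 FPKM in WT diabetic mice. The log2 difference of total Xbp1 was 0.04 (95% interval -0.34 to 0.41). Atf4 (chr15:80255184-80257545, plus strand), which is controlled mainly in translation, was at 61.8, 57.0 and 66.5 FPKM in WT control and 78.1, 78.3, 100.02 and 62.9 FPKM in WT diabetic mice. Of the diabetic mice, 3 lay above all controls, and the log2 difference was 0.35 (interval -0.08 to 0.78, limma adjusted p = 0.159). Chac1, a glutathione-degrading enzyme downstream of ATF4 and CHOP (chr2:119351242-119354326, plus strand), was the lowest member, at 0.194 to 0.679 FPKM in WT control and 0.473 to 0.969 FPKM in WT diabetic mice, with a log2 difference of 0.70 (interval -0.22 to 1.63). Relative to the median of all genes, Atf4 stood at 0.07, Xbp1 at -0.25, Herpud1 at -0.37 and Chac1 at 0.42.

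**Figure D2:**
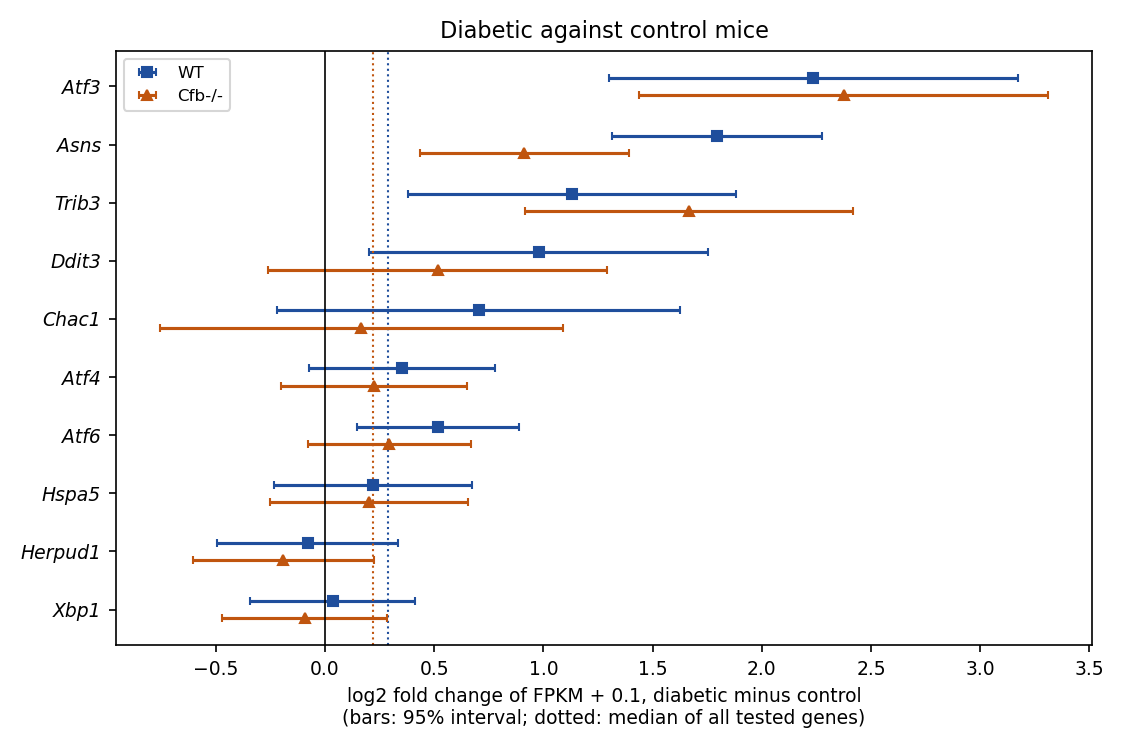
Log2 fold change of FPKM + 0.1 (horizontal axis) between diabetic and control mice for each member, in WT (squares) and Cfb-/- mice (triangles), with 95% intervals from limma and the median of all tested genes as dotted lines (0.29 and 0.22). Atf3, Asns and Trib3 lie to the right of 0 with their whole interval in both genotypes, and Hspa5, Herpud1 and Xbp1 straddle it.

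In Cfb-/- mice, 3 of the 10 members rose with diabetes, Atf3, Trib3 and Asns, and none fell. Of all tested genes, 33.8% were called in this comparison and 27.4% were called higher. The members' median log2 difference was 0.26, beside 0.22 for all tested genes. These 3 were called higher in both genotypes, as 22.7% of all tested genes were. They were also the 3 whose groups did not overlap, against 33.6% of all tested genes higher without overlap. The genotypes have separate control mice, so the 2 comparisons share no library, though both rest on 1 fitted estimate of the spread.

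Atf3 was at 0.298, 2.14 and 0.996 FPKM in Cfb-/- control and at 6.16, 8.07, 2.88 and 4.51 FPKM in Cfb-/- diabetic mice. Both groups were more scattered than in WT, yet they did not overlap, and the log2 difference was 2.37 (SE 0.44, limma adjusted p = 8.5e-04). Trib3 was at 0.593, 0.413 and 0.374 FPKM in Cfb-/- control and at 2.15, 2.92, 1.15 and 1.01 FPKM in Cfb-/- diabetic mice. Its log2 difference was 1.67 (SE 0.35, limma adjusted p = 0.0022).

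Asns was at 2.26, 2.04 and 2.57 FPKM in Cfb-/- control and at 5.76, 5.52, 3.56 and 3.26 FPKM in Cfb-/- diabetic mice. The diabetic mice formed a higher and a lower pair, both above the controls, and the log2 difference was 0.91 (SE 0.22, limma adjusted p = 0.0060). This call was lost after quantile normalization (adjusted p = 0.0723). For Asns the exact two-sided permutation test gave p = 0.0571, beside 0.0286 for Atf3 and Trib3. Cfb-/- diabetic 1 and 2, the higher pair for Asns, were also the higher pair for Atf3, Trib3, Ddit3 and Chac1.

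Ddit3 was at 1.51, 6.09 and 3.43 FPKM in Cfb-/- control and at 4.84, 7.17, 3.41 and 3.71 FPKM in Cfb-/- diabetic mice. Cfb-/- control 2 lay above 3 of the 4 diabetic mice. The log2 difference was 0.52 (SE 0.36, limma adjusted p = 0.296), and 0.98 (adjusted p = 0.0469) without Cfb-/- control 2. Hspa5 ranged from 149 to 326 FPKM among the Cfb-/- controls, wider than its 199 to 298 FPKM in Cfb-/- diabetic mice, with a log2 difference of 0.20 (95% interval -0.25 to 0.66). Cfb-/- control 2 was the highest of its group for Hspa5, Ddit3, Atf4, Atf3, Xbp1, Herpud1 and Chac1, and Cfb-/- control 1 was the lowest of the group for the same 7 members.

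The remaining members overlapped between diabetic and control Cfb-/- mice. The log2 difference was 0.29 for Atf6 (95% interval -0.08 to 0.67), 0.22 for Atf4 (-0.20 to 0.65), 0.17 for Chac1 (-0.75 to 1.09), -0.09 for Xbp1 (-0.47 to 0.28) and -0.19 for Herpud1 (-0.61 to 0.22). For Atf6, whose rise was called in WT mice alone, the difference between the genotypes' changes was -0.22 (SE 0.25, unadjusted p = 0.381 by limma), and for Ddit3 it was -0.46 (SE 0.51, unadjusted p = 0.382). A call in one genotype and not in the other was therefore no tested difference between them.

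Loss of Cfb was compared within diabetic mice. None of the 10 members was called by limma, where 0.00671% of all tested genes were (Cfb alone), and none had an unadjusted p under 0.05, where 3% of all tested genes did. Cfb-/- and WT diabetic mice overlapped in all 10 members, where 2.75% of all tested genes did not overlap. The largest differences were in Atf3, at a log2 difference of 0.46 (95% interval -0.41 to 1.33), and in Herpud1, at -0.26 (-0.65 to 0.12). Hspa5 differed by 0.0035 (interval -0.42 to 0.42), Xbp1 by -0.12 (-0.47 to 0.23), Atf4 by 0.12 (-0.27 to 0.52), Atf6 by 0.07 (-0.28 to 0.41) and Asns by 0.24 (-0.21 to 0.68). The intervals were -0.63 to 0.80 for Ddit3, -0.48 to 0.92 for Trib3 and -0.85 to 0.86 for Chac1. All 10 intervals include 0 and leave room for changes in either direction, so no member is shown to be unchanged.

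Within control mice, none of the 10 members was called either, with the same 0.00671% of all tested genes called (Cfb alone). Asns was the one member with an unadjusted p under 0.05, where 17.5% of all tested genes had one. It was at 0.723, 1.23 and 1.10 FPKM in WT control and 2.26, 2.04 and 2.57 FPKM in Cfb-/- control mice, without overlap, as in 13.8% of all tested genes. The log2 difference was 1.12 (SE 0.24, unadjusted p = 3.3e-04, limma adjusted p = 0.190), and the exact permutation test gave 0.1, the smallest p that 3 mice against 3 allow. Without WT control 1, the mouse with the lowest Asns, the difference was 0.92 and its adjusted p was 0.0344, and in that comparison 945 of the tested genes were called higher and 766 lower, where 1 was called with all mice. In the order of group means, Asns rose from WT control (1.02 ± 0.264 FPKM, SD, n = 3) to Cfb-/- control (2.29 ± 0.267, n = 3), WT diabetic (3.74 ± 0.596, n = 4) and Cfb-/- diabetic mice (4.53 ± 1.3, n = 4), and among neighbours in this order only the diabetic groups overlapped. The other members differed between the control genotypes by log2 differences from -0.32 (Trib3, 95% interval -1.12 to 0.48) to 0.55 (Ddit3, -0.28 to 1.38).

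The interaction, the change with diabetes in Cfb-/- minus that in WT mice, was called for none of the members and for 0% of all tested genes. The value for Asns was -0.88 (SE 0.32, unadjusted p = 0.0143, limma adjusted p = 0.779), where 5.77% of all tested genes had an unadjusted p under 0.05. For Atf3 it was 0.14 (95% interval -1.18 to 1.46), for Trib3 0.54 (-0.52 to 1.60) and for Chac1 -0.54 (-1.84 to 0.77).

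**Figure D3:**
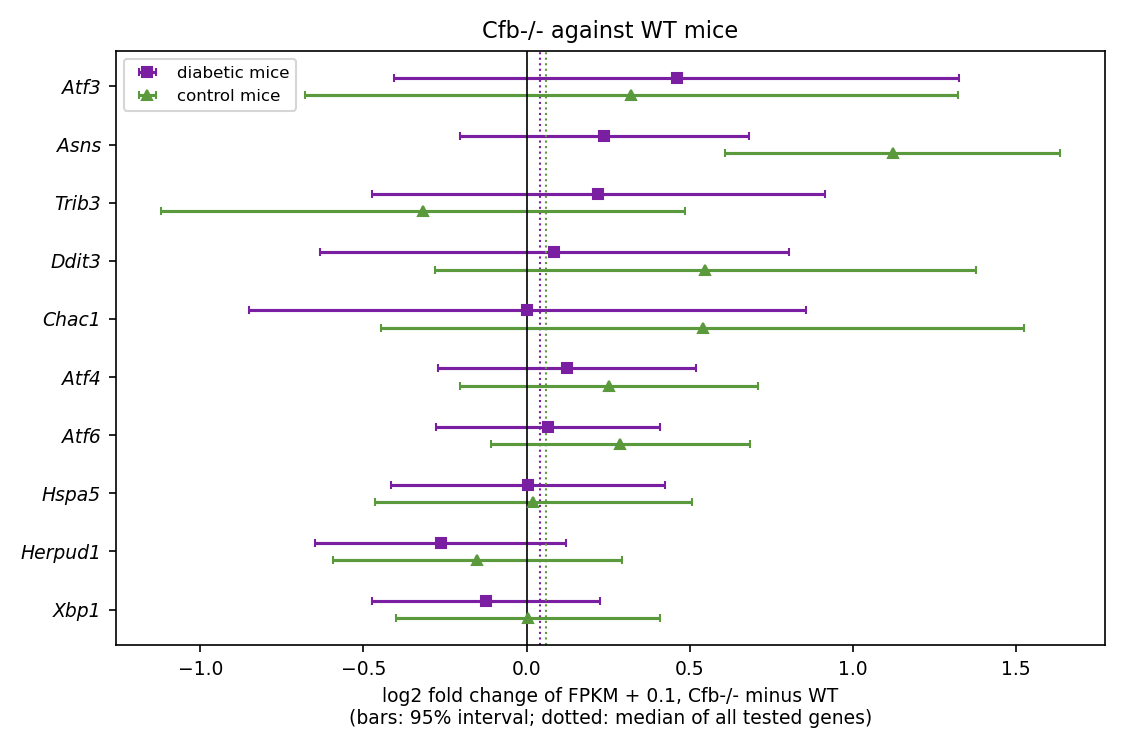
Log2 fold change of FPKM + 0.1 (horizontal axis) between Cfb-/- and WT mice for each member, in diabetic (squares) and control mice (triangles), with 95% intervals from limma. All intervals in diabetic mice cross 0, and in control mice that of Asns (0.61 to 1.63) alone does not.

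The wider pathway was read from 119 genes in 8 lists, of which 117 were tested. Without the members, 107 genes remained, of which 38 were higher and 15 lower in WT diabetic than in WT control mice, with a median log2 difference of 0.22 beside 0.29 for all tested genes. In Cfb-/- mice 30 were higher and 9 lower, with a median of 0.11 beside 0.22. In both genotypes 28 of the 107 were higher, as 22.7% of all tested genes were. Hspd1, Hspe1, Lonp1, Shmt2 and Sil1 were lower in both. The share of all tested genes lower in both is not given here, so that count cannot be read against it. Called in either direction were 49.5% of the 107 in WT and 36.4% in Cfb-/- mice, beside 46.1% and 33.8% of all tested genes. By direction, the shares of all tested genes were 36.2% higher and 9.97% lower in WT, and 27.4% and 6.4% in Cfb-/- mice. With the members included, the split in WT mice was 43 higher and 15 lower, and 28 higher and 38 lower after median-ratio scaling. Of the 14912 tested genes, 3391 (22.7%) were higher and 3347 (22.4%) lower in WT mice after that scaling. The pathway list thus leaned lower there, unlike the near-even split of all tested genes. In Cfb-/- mice the pathway split was 33 and 9, and 22 and 19 after that scaling, beside 2761 higher and 2101 lower of all tested genes. Between the genotypes, 0 of the 117 genes were called in diabetic or in control mice.

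Among the sensors and eIF2alpha kinases, 5 of 7 tested genes were higher in WT diabetic mice (Ern1, Eif2ak2, Eif2ak3, Eif2ak4 and the member Atf6) and 3 in Cfb-/- diabetic mice. Beside these counts, 36.2% of all tested genes were called higher in WT and 27.4% in Cfb-/- mice. Eif2ak2, the interferon-inducible kinase of double-stranded RNA, changed most, from 1.02 to 2.20 FPKM in WT control to 4.77 to 6.23 FPKM in WT diabetic mice, a log2 difference of 1.75 in WT and 1.55 in Cfb-/- mice. Eif2ak3, which encodes PERK, rose by 0.80 and 0.46, and Eif2ak4, which encodes GCN2, by 0.69 and 0.49. The smaller of these values, those of Eif2ak3 and Eif2ak4 in Cfb-/- mice (adjusted p of 0.0370 and 0.0437), were not called after median-ratio scaling, and were lost under 8 and 18 of the 26 alternatives. Quantile normalization ended the call of Eif2ak4 in WT mice too (adjusted p of 0.445).

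Of the 12 transcription factors, 7 were higher in WT and 4 in Cfb-/- diabetic mice, and none was lower. The shares of all tested genes called higher were 36.2% in WT and 27.4% in Cfb-/- mice. Creb3l3, among the 7, was near the floor, with means of 0.054 FPKM in WT control and 0.30 FPKM in WT diabetic mice. Besides Atf3, Atf5, a factor translated under the same control as ATF4, rose by 1.32 in WT and 1.36 in Cfb-/- mice, from 3.88 to 6.46 FPKM in all controls to 10.8 to 20.5 FPKM in all diabetic mice. Cebpb, a dimerization partner of ATF4 and CHOP, rose by 0.56 and 0.79, the former not called after median-ratio scaling.

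Of 15 tested targets of ATF4 and CHOP in stress and feedback, 11 were higher in WT and the same 11 were higher in Cfb-/- diabetic mice, with medians of 0.94 and 0.79. Of all tested genes, 36.2% were called higher in WT, 27.4% in Cfb-/- mice and 22.7% in both. Vldlr was lower in Cfb-/- diabetic mice. Gdf15, a stress cytokine, was at 4.00 to 6.33 FPKM in WT control and 39.2 to 45.8 FPKM in WT diabetic mice. Its Cfb-/- controls held 5.83 to 21.8 FPKM and the Cfb-/- diabetic mice 35.5 to 67.4 FPKM, so groups were apart in each genotype. Its log2 difference was 2.96 in WT and 2.20 in Cfb-/- mice. Stc2, a secreted glycoprotein induced by PERK signaling, rose by 2.17 and 2.28, and Tnfrsf10b, the death receptor induced by CHOP, by 2.21 and 1.99. Gdf15, Tnfrsf10b, Bbc3 and Sesn2 of this list are also known as targets of p53.

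Of the ATF4 targets of amino acid supply, 10 of 23 tested genes were higher and 2 lower in WT, and 11 higher and 3 lower in Cfb-/- diabetic mice. Among all tested genes, 36.2% were higher and 9.97% lower in WT, and 27.4% and 6.4% in Cfb-/- mice. The members of this list moved in both directions. Phgdh, the first enzyme of serine synthesis, rose by 1.59 and 1.63, and the transporters Slc7a5 and Slc7a1 by 1.98 and 1.85 in WT and by 1.08 and 1.19 in Cfb-/- mice. Shmt2, the mitochondrial enzyme of serine and glycine metabolism, was lower by log2 differences of -0.77 and -0.66, Psph was lower in WT mice, and Psat1 and Slc1a4 were lower in Cfb-/- mice.

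ER chaperones and the degradation machinery include targets of ATF6 and XBP1, and their counts stand beside 36.2% of all tested genes called higher and 9.97% lower in WT mice, and 27.4% and 6.4% in Cfb-/- mice. Of 24 ER chaperones and folding enzymes, 5 were higher (Dnajb9, Dnajc10, Txndc5, Ero1l and Ero1lb) and 4 lower (Pdia5, P4hb, Fkbp2 and Sil1) in WT diabetic mice, with a median of 0.16. In Cfb-/- diabetic mice Dnajc10, Txndc5 and Ero1lb were higher and Sil1, a nucleotide exchange factor of BiP, was lower, with a median of 0.07. Of 18 genes of ER-associated degradation and translocation, Ube2j1 and Sec24d were higher and Derl2, Os9, Vimp and Sec61b lower in WT mice, and Sec24d was higher and Edem1 lower in Cfb-/- mice, with medians of -0.11 and -0.05. The calls of Dnajc10 and Ero1lb in Cfb-/- mice were lost after median-ratio scaling and that of Txndc5 in both genotypes. Sec24d in Cfb-/- mice was not called after that scaling either (adjusted p of 0.150). The call of Sil1 in Cfb-/- mice was lost with the replicate block (0.0734) and in 5 of the 7 omissions of 1 Cfb-/- mouse.

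Of 11 genes of eIF2 and its regulators, Eif2s2, Nck1 and Ibtk were higher in WT and none was called in Cfb-/- diabetic mice, with a median of 0.10. Of 7 mitochondrial chaperones and proteases, none rose, 5 were lower in WT (Hspd1, Hspe1, Lonp1, Clpp and 0610009O20Rik) and 3 in Cfb-/- diabetic mice. The counts of both lists stand beside 36.2% of all tested genes higher and 9.97% lower in WT, and 27.4% and 6.4% in Cfb-/- mice. Hspe1, the cochaperonin HSP10, went from 303 to 424 FPKM in WT control to 187 to 231 FPKM in WT diabetic mice, with log2 differences of -0.67 and -0.70 in WT and Cfb-/- mice. The calls of Hspd1 in WT mice (adjusted p of 0.0440) and of Lonp1 in Cfb-/- mice (0.0498) were lost under 17 and 19 of the 26 alternatives.

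**Figure D4:**
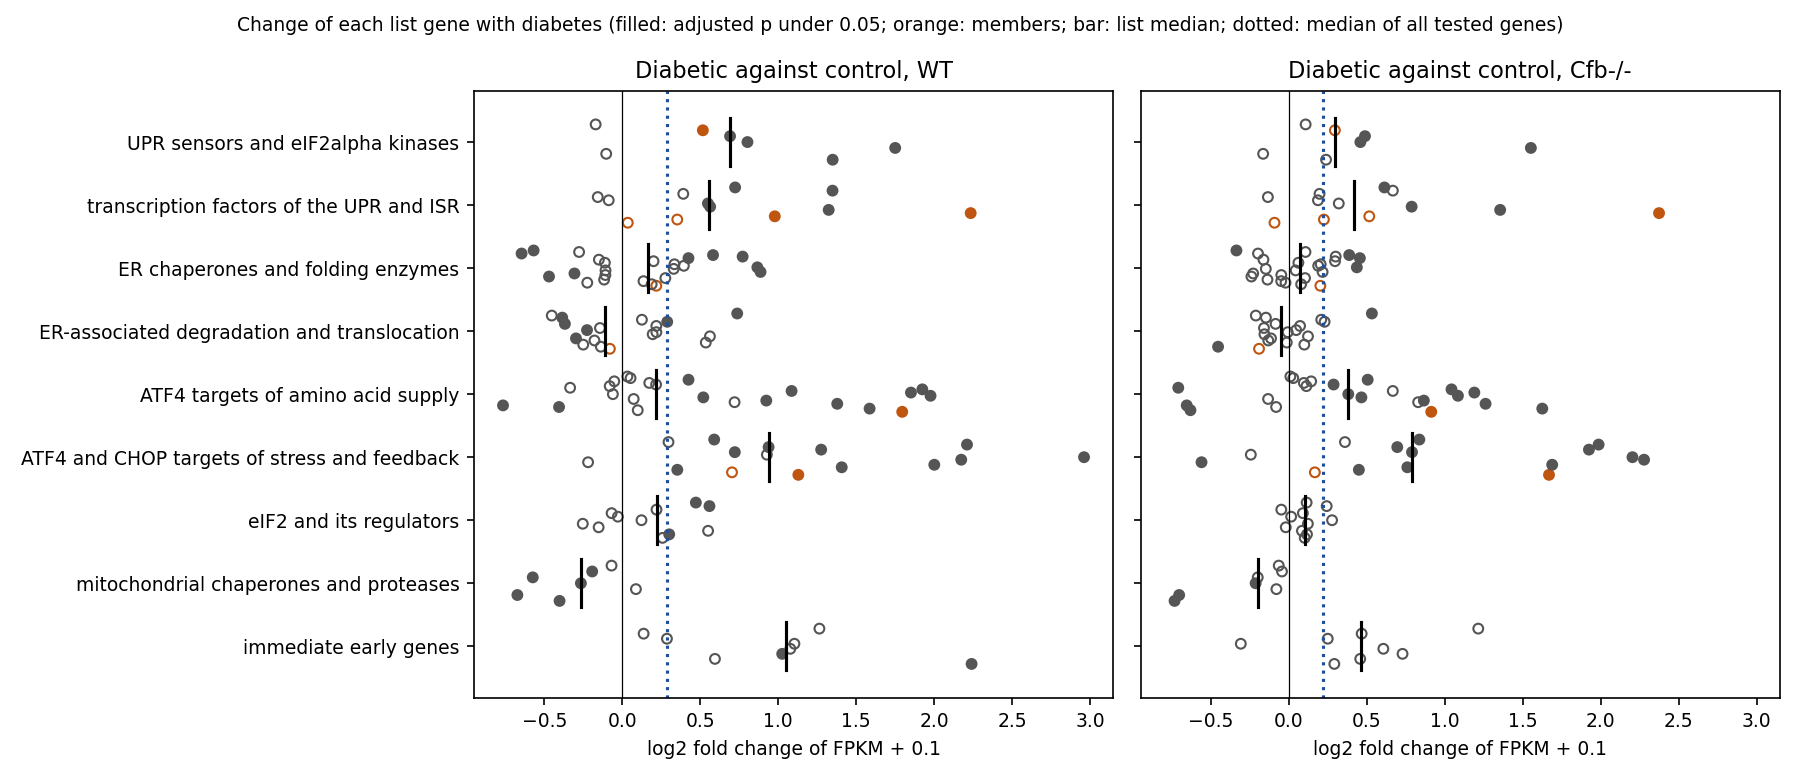
Log2 fold change of FPKM + 0.1 (horizontal axis) with diabetes in WT (left) and Cfb-/- mice (right) for each gene of the 8 pathway lists and of 8 immediate early genes (rows). Filled points have an adjusted p under 0.05, orange points are members, bars are list medians and the dotted line is the median of all tested genes. The list of ATF4 and CHOP targets of stress has medians of 0.94 and 0.79, and the mitochondrial list has -0.27 and -0.20.

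Markers of other cells moved with diabetes as well. Their counts are read beside 36.2% of all tested genes called higher in WT, 27.4% in Cfb-/- mice and 22.7% in both. The summed level of 6 markers of injured tubule, such as Havcr1 and Lcn2, was 233 to 303 FPKM in all controls and 1182 to 2383 FPKM in all diabetic mice, and all 6 were called higher in both genotypes. Summed macrophage markers went from 50.3 to 84.0 FPKM in controls to 201 to 371 FPKM in diabetic mice, with 7 of 7 called higher in WT and 6 of 7 in Cfb-/- mice. The sum of 7 proximal tubule markers was 42001 to 70085 FPKM in controls and 7341 to 16954 FPKM in diabetic mice. Kap dominated it, with 67836 of the 70085 FPKM in WT control 2 and 6671 of the 7341 FPKM in Cfb-/- diabetic 1. This sum therefore mostly repeats the fall of Kap. Of the 7 markers, 5 were called lower in WT and 6 in Cfb-/- mice, beside 9.97% and 6.4% of all tested genes. Plasma cells, whose secretory ER depends on XBP1, had markers summing to 4.97 to 10.8 FPKM in controls and 12.9 to 84.8 FPKM in diabetic mice. Of these 6 markers, 4 were called higher in WT and 3 in Cfb-/- mice. Derl3, among them, also stands on the list of ER-associated degradation. Other sets differed more between genotypes. All 6 urothelium markers were called higher in WT and 0 in Cfb-/- diabetic mice. Their sum had means of 0.465 and 24.1 FPKM in WT control and diabetic mice, and 6.07 and 1.93 FPKM in Cfb-/- mice. Adipocyte markers called higher were 4 of 4 tested in WT and 1 in Cfb-/- mice, and podocyte markers 2 of 5 and 5 of 5. In tissue of mixed cell types, more cells of a type and more RNA per cell cannot be told apart. The part of these cells in the members' changes was not tested.

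Immediate early genes, which respond within minutes to many stimuli as Atf3 can, varied between mice. The sum of 8 of them, Fos and Jun included, was 47.3 to 54.9 FPKM in WT control, 78.5 to 85.1 FPKM in WT diabetic and 82.9 to 158 FPKM in Cfb-/- diabetic mice. In Cfb-/- control mice it was 35.6, 229 and 87.3 FPKM, the same order in which Hspa5, Ddit3, Atf4, Atf3, Xbp1, Herpud1 and Chac1 stood in these 3 mice. Trib3, Asns and Atf6 stood in other orders, and Cfb-/- control 2 was the lowest of the 3 for Asns and Atf6. Cfb-/- diabetic 1 and 2, the mice high in Asns and Atf3, had 128 and 158 FPKM, and the other Cfb-/- diabetic mice 85.8 and 82.9 FPKM. Fos and Jun were called higher in WT diabetic mice and none of the 8 in Cfb-/- diabetic mice, where 36.2% and 27.4% of all tested genes were. Cfb-/- control 2, with the highest sum of all 14 mice, had 2.14 FPKM of Atf3, below each of the 8 diabetic mice, and 2.04 FPKM of Asns. The part of immediate early induction in the members' values was not tested.

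**Figure D5:**
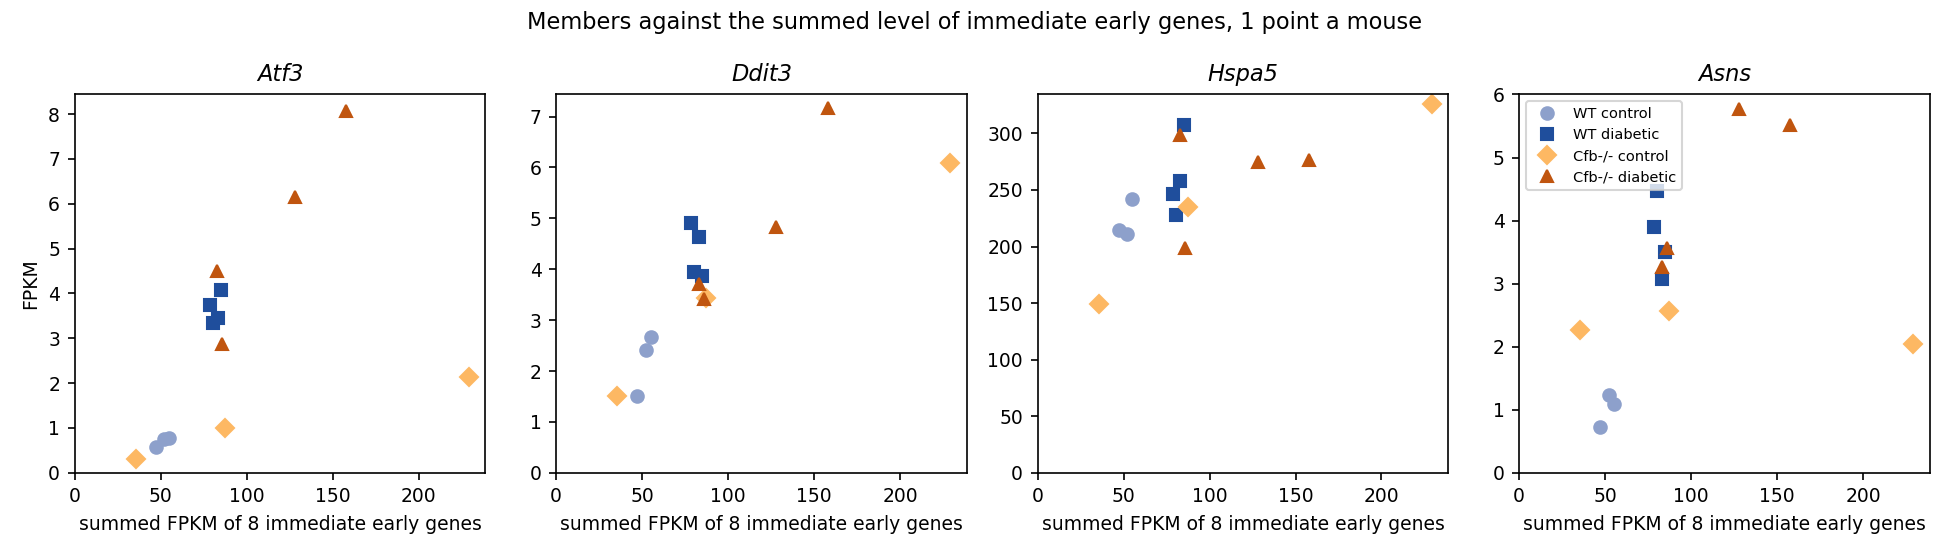
FPKM of Atf3, Ddit3, Hspa5 and Asns (vertical axes) against the summed FPKM of 8 immediate early genes (horizontal axes) in each mouse, by group. Cfb-/- control 2 lies at the far right (229 FPKM), high in Ddit3 (6.09 FPKM) and Hspa5 (326 FPKM) and low in Asns (2.04 FPKM).

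Covariation among members was measured within groups, as deviations of log2(FPKM + 0.1) from the group means over the 14 mice, for all 45 pairs. Ddit3 and Atf3 went together (Pearson r of 0.937 with an exact permutation p of 0.0015, and 0.0401 after Benjamini-Hochberg adjustment over the 45 pairs), with a Spearman rho of 0.785 (exact permutation p = 0.0092, adjusted p = 0.183) and an r of 0.818 without the 2 mice farthest from the median of Ddit3. Hspa5 and Xbp1 did so as well (r of 0.708, exact permutation p of 0.0018, adjusted p of 0.0401), with a rho of 0.798 (exact permutation p = 0.0027, adjusted p = 0.122) and an r of 0.826 without the 2 farthest mice. No pair passed by rho after adjustment. The permutations moved mice within their groups only, and the mice share no library.

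The genes whose levels over the 14 mice most resembled each member, between and within groups together, differed from member to member. Hspa5 was nearest to the ER chaperone genes Manf (r = 0.953), Hyou1 (0.923) and Pdia4 (0.903), all 3 on the ER chaperone list. Ddit3 was nearest to Serpinh1 (0.959), Hspb1 (0.928) and Dynll1 (0.913), Atf4 to Bag3 (0.916), Jmjd6 (0.909) and Ppid (0.887), and Atf3 to Hspb1 (0.972), Gdf15 (0.963) and Tubb2a (0.962). Hspb1, Bag3 and Serpinh1 encode proteins known from the heat shock response. Trib3 was nearest to Ssbp4 (0.961), Tbrg1 (0.960) and Maff (0.960), and Asns to Arrdc4 (0.966), Cnksr1 (0.966) and Il17re (0.960). Atf6 was nearest to Prkrir (0.985), Fam120a (0.980) and Ascc3 (0.979), Chac1 to Irf2bpl (0.902), Zfp873 (0.859) and Cebpa (0.856). Herpud1 was nearest to Ptges3 (0.786), Them4 (0.744) and Mcfd2 (0.727), lower than the values given for the other members. These correlations over 14 mice share the difference between diabetic and control libraries and are a description.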

How the data were processed

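Kidney mRNA of 14 mice in 4 groups, named in the sample titles, was sequenced from stranded paired-end libraries. The authors deposited 1 FPKM value per gene and mouse. No label states the unit, and the values (not whole, without a fixed sum) and the named tools point to FPKM. The submitters' processing notes name Trimmomatic, HISAT2, Cufflinks, HTSeq and DESeq, and the build GRCm38.p6. Strand settings in counting are not given in the sources used here, so reads of overlapping genes (Gm15890 antisense to Herpud1, Gm24748 opposite Atf3, Gm23523 and Gm25235 within Atf6) are uncertain. The count test of the study's methods could not be run on FPKM, and limma took its place.

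Values were taken as log2(FPKM + 0.1) without further scaling. Genes at 0.1 FPKM or more in at least 3 mice were tested with limma 3.58.1 (R 4.3.3, mean-variance trend, a mean per group, all 14 mice), with Benjamini-Hochberg adjustment over all tested genes and a threshold of 0.05. Fold changes on this scale understate changes of low genes. The fit was tested on simulated data. P-values measure the spread between mice. Exact permutation tests, correlations and promoter searches used Python 3.11.15 with scipy 1.17.1. Promoter sequences and loci are from RefSeq, GRCm38.p6. Named were the members, up to 3 genes per list with the largest rise and fall called in both genotypes, the 3 genes most like each member (mean log2 level of at least 0), and genes behind counts of 5 or fewer. The genes most like Xbp1 are not reported here. Members and lists were chosen with earlier results of these data known. Alternatives covered filter, pseudocount, scaling, groups fitted alone, trend, replicate block and each mouse left out. Same-numbered mice deviated together no more than others, with correlations from -0.388 to 0.243, beside -0.314 to 0.392 for mice of different numbers. The numbers were therefore not used as pairs, though in groups of 3 or 4 mice this check cannot exclude a pairing.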

Additional observations from a re-analysis of the deposited data

Results flagged for a closer look

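Among the members in groups of 4 mice, 1 value stood apart from the others of its group. Herpud1 in Cfb-/- diabetic 4 was at 119.73 FPKM, and the other 3 mice of that group were at 90.7, 87.7 and 86.1 FPKM. It was flagged because its gap to the nearest mouse exceeds Dixon's 95% limit for 4 values. The 10 members were examined in 2 groups, or 20 sets of values, and chance flags about 1 in 20. The value lies within the range of Herpud1 in WT diabetic mice, 91.7 to 141 FPKM, and no other result of the members was flagged.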

How the results depend on the processing

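Limits of the data come first. Groups hold 3 or 4 mice, absolute depth is unknown, and the control mice decide several calls. Of 10 members, the 5 called in WT mice became 3 after median-ratio scaling (Asns, Atf3 and Trib3), 2 after quantile normalization (Asns and Atf3) and 3 without the control mice numbered 2 (Asns, Atf3 and Ddit3, an alternative chosen after seeing the data). Leaving out 1 mouse at a time gave 2 to 5, with 3 without WT diabetic 2 or WT control 1 and 2 without WT control 2. Scaling to the sum of FPKM, also chosen after seeing the data, gave 7 by adding Atf4 and Hspa5, and 6 without Kap in the sum, beside 8644 and 7071 of the 14912 tested genes called higher. In Cfb-/- mice 3 members stayed called under all alternatives other than quantile normalization (2) and the omission of Cfb-/- control 2 (4, with Ddit3). Between control genotypes, leaving out 1 mouse gave 0 to 1 of the members and 0 to 22 of the 117 pathway genes, and the highest of both came without WT control 1, where 14 were higher and 8 lower, beside 945 higher and 766 lower of the 14912 tested genes. The causes were not tested.

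Nothing beyond the number is known to link same-numbered mice. With the replicate block, 5 and 3 members were called in WT and Cfb-/- mice, and 51 and 35 of the pathway genes in place of 58 and 42. The block changed no member's call. Of the list genes recomputed under each alternative, it ended the calls of Hspd1 in WT mice and of Eif2ak3, Eif2ak4, Ero1lb, Sil1 and Lonp1 in Cfb-/- mice (adjusted p of 0.0742, 0.0603, 0.0562, 0.0721, 0.0734 and 0.0912).

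Directions that turned belong to genes that were not called, apart from Lonp1 and Ero1lb. In the diabetes comparison of WT mice, median-ratio scaling gave -0.064 for Hspa5 and -0.25 for Xbp1, quantile normalization 0.11 for Herpud1 and -0.059 for Chac1, scaling to the sum 0.23 for Herpud1 and 0.044 for Lonp1 (called lower as reported), and the sum without Kap 0.10 for Herpud1. In Cfb-/- mice, median-ratio scaling gave -0.042 for Hspa5, -0.019 for Atf4 and -0.046 for Chac1, quantile normalization -0.48 for Chac1 and -0.037 for Ero1lb (called higher as reported), the sum 0.094 for Xbp1, and the omission of the controls numbered 2 gave 0.012 for Herpud1. Between diabetic genotypes, Hspa5 was -0.050 after median-ratio scaling, and Chac1 was -0.0052 with a pseudocount of 0.01, -0.045 after median-ratio scaling and -0.031 after quantile normalization. Between control genotypes, median-ratio scaling gave -0.071 for Hspa5 and -0.087 for Xbp1, the sums with and without Kap gave 0.033 and 0.025 for Herpud1, and the omission of the controls numbered 2 gave -0.29 for Hspa5, -0.22 for Atf3, -0.089 for Xbp1 and -0.13 for Chac1. The interaction became 0.021 for Hspa5 after median-ratio scaling and, without the controls numbered 2, 0.29 for Hspa5, 0.11 for Atf4, 0.23 for Herpud1 and 0.13 for Chac1.

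Leaving out 1 mouse at a time also turned some directions. In WT mice the diabetes change ranged from -0.12 to 0.21 for Xbp1 and from -0.21 to 0.038 for Herpud1. In Cfb-/- mice it ranged from -0.095 to 0.47 for Hspa5, -0.080 to 0.40 for Atf4, -0.20 to 0.068 for Xbp1, -0.40 to 0.012 for Herpud1 and -0.29 to 0.48 for Chac1. Between diabetic genotypes the range was -0.064 to 0.13 for Hspa5, -0.13 to 0.22 for Ddit3, -0.20 to 0.037 for Xbp1, -0.041 to 0.44 for Trib3 and -0.28 to 0.22 for Chac1. Between control genotypes it was -0.25 to 0.32 for Hspa5, -0.27 to 0.98 for Atf3, -0.15 to 0.18 for Xbp1 and -0.36 to 0.056 for Herpud1. The interaction ranged from -0.31 to 0.25 for Hspa5, -0.43 to 0.050 for Atf4, -0.52 to 0.73 for Atf3, -0.30 to 0.033 for Xbp1 and -0.32 to 0.092 for Herpud1.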
